A study of Mus musculus with 38 samples.

Results

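The voltage-gated sodium channel subunits examined here were 7 genes chosen by name, of 22401 genes with an annotated coding sequence (CDS) in the count files. They comprised the pore-forming alpha subunits Scn1a, Scn2a, Scn3a and Scn8a and the auxiliary beta subunits Scn2b, Scn3b and Scn4b. Ribosome footprints were counted in 38 libraries of 14 groups, all from primary cortical neurons of CD-1 mouse embryos grown in vitro for 12 d. Every culture carried a doxycycline-inducible lentiviral biotin ligase, either PSD95-TurboID, which is fused to PSD95, a scaffold of the postsynaptic density, carries its UTRs and labels dendrites, or Pan-TurboID, which lacks such elements and is spread through the cell. By the labels, cycloheximide came 2 min ahead of a 30 min biotin pulse, for which the study's text gives a shorter time with DHPG. For each culture an input library held the footprints of all monosomes, and a pulldown library held those of the biotinylated monosomes that streptavidin retained. The KCl experiment had 24 libraries: resting and depolarized neurons, each with both ligases, as input and pulldown, with 3 replicates a group. Depolarized neurons had been silenced with tetrodotoxin, a blocker of these channels, and DL-AP5, an NMDA receptor antagonist, before 55 mM KCl for 1 h. By the study's methods, fresh medium with biotin, tetrodotoxin and DL-AP5 then took the place of the KCl medium for 30 min. The labels of the resting libraries name cycloheximide alone. The DHPG experiment had 3 inputs and 3 pulldowns of PSD95-TurboID neurons that received the same silencing and then 100 µM of the metabotropic glutamate receptor agonist DHPG for 10 min. The knockdown experiment had 8 PSD95-TurboID libraries from neurons treated with 20 nM siRNA against the translation initiation factor eIF4G2 for 72 h, either resting or depolarized with KCl, with 2 replicates a group. The description field of the DHPG inputs and of all knockdown libraries names the cytosol, whereas their lentivirus field names PSD95-TurboID, and the lentivirus field was used. Several dishes were pooled for each sample. The study's text speaks of 3 biological replicates for ribosome profiling. It does not say whether those of the DHPG experiment came from separate cultures, and it does not describe those of the knockdown groups. In both experiments p-values measure the spread between samples, which may be technical.

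An alpha subunit of a voltage-gated sodium channel forms the whole ion-conducting pore from 4 homologous domains, each with a voltage sensor. The channels open on depolarization, carry the rising phase of the action potential and then inactivate within milliseconds. They are concentrated at the axon initial segment, where ankyrin G, the product of Ank3, anchors them. Scn1a encodes Nav1.1, best known from fast-spiking GABAergic interneurons. Scn2a encodes Nav1.2, the main channel of young excitatory neurons, and Scn3a encodes Nav1.3, which is prominent before birth. Scn8a encodes Nav1.6, which becomes the principal channel of mature initial segments and nodes of Ranvier. Beta subunits are single-pass membrane proteins with an extracellular immunoglobulin domain. Those encoded by Scn2b and Scn4b are joined to the alpha subunit by a disulphide bond, and that encoded by Scn3b is bound without one.

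The alpha subunit genes are close paralogs, and a coding exon in the part that encodes the voltage sensor of domain I shows how far their sequences are shared. It is printed here for Scn2a, Scn3a and Scn8a from the GRCm38 (mm10) genome, 5′ to 3′ on the coding strand, because the likeness limits the assignment of footprints to a gene. Capitals mark the bases that are not the same in all 3 genes.
Scn2a exon (chr2:65682690-65682781, plus strand): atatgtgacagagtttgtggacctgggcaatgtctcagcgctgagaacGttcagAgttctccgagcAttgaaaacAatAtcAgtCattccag
Scn3a exon (chr2:65525695-65525786, minus strand): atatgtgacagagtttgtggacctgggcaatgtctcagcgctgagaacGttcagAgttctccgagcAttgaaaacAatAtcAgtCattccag
Scn8a exon (chr15:100959603-100959694, plus strand): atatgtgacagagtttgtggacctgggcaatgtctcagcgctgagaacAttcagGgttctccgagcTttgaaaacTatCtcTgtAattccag
The exon is 92 nt long in each gene. It was identical in Scn2a and Scn3a over 92 nt, so a footprint there cannot be assigned to either gene with certainty, and it differed at 7 bases between Scn8a and the other genes (92.4% identity). In Scn3a and Scn8a it is coding exon 5 of the transcript that was counted. The Scn2a exon belongs to other annotated transcripts, so its footprints are not part of the Scn2a levels given here.

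The libraries held 5906281 to 35643247 counted reads, of which 2048604 to 14646402 fell on the CDS of the longest transcript of a gene. Levels are given as counts per 1000000 of those CDS counts (CPM), and per kilobase of CDS where genes are compared. Footprints do not separate the amount of an mRNA from the ribosomes on each mRNA, and in such pooled cultures fewer cells of a type and less RNA per cell cannot be told apart. Eif4g2, the target of the siRNA, was lower in the knockdown libraries than in the untreated ones, at 283.5 and 283.8 CPM in resting inputs against 561.9 to 581.5 CPM. Fos, an immediate early gene, was at 179.6 to 464.9 CPM in resting inputs and at 2045 to 2968 CPM in depolarized inputs. In DHPG inputs it was at 37.6 to 41.4 CPM, below all resting inputs, whereas Arc, another immediate early gene, was at 31.1 to 34.3 CPM in them and at 11.5 to 17.2 CPM in resting PSD95-TurboID inputs. Dlg4, which encodes PSD95 itself, was at 1369 to 3094 CPM in resting PSD95-TurboID pulldowns and at 39.7 to 50.1 CPM in resting Pan-TurboID pulldowns. As the ligase is expressed as a fusion with PSD95, the Dlg4 counts may include footprints of the construct, and the 2 sources were not separated. In depolarized PSD95-TurboID pulldowns Dlg4 was at 337 CPM in replicate 1 and reached 5220 CPM in another replicate. The 6 neuronal markers summed to 4682 to 9952 CPM in the libraries and the 6 microglial markers to at most 20.1 CPM. The 6 astrocyte markers summed to between 78.2 CPM in DHPG pulldowns and 886 CPM in resting pulldowns of the KCl experiment. The 7 oligodendrocyte lineage markers summed to between 21.5 CPM in DHPG pulldowns and 579 CPM in resting inputs of the KCl experiment.

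Of the 7 subunits, 6 passed the filter on low counts and Scn4b was barely detected. Over the 38 libraries the CDS counts were 89722 for Scn2a, 26710 for Scn3a, 18082 for Scn8a, 14986 for Scn3b, 11146 for Scn1a, 3725 for Scn2b and 46 for Scn4b. Scn4b had between 0 and 8 counts in a library and reached at most 1.53 CPM. Tests were therefore made for 6 of the 7 subunits.

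In the 6 resting inputs of the KCl experiment, the lowest, median and highest levels of Scn2a were 158, 222 and 258 CPM. Those of Scn3a were 47.0, 59.5 and 65.4 CPM. Those of Scn3b, whose CDS is only 648 nt long against 6021 nt for Scn2a, were 41.6, 53.2 and 61.1 CPM. Scn8a lay at 40.8, 48.5 and 57.2 CPM. Scn1a lay at 21.1, 24.8 and 33.8 CPM. Scn2b lay at 14.3, 18.6 and 22.7 CPM. Thus Scn2a exceeded every other subunit on the scale of whole-gene levels in these libraries, and the ranges of Scn3a, Scn8a and Scn3b overlapped.

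Per kilobase of CDS, Scn3b had the highest mean level in all 7 input groups, from 72.3 CPM per kb in resting Pan-TurboID inputs to 138 CPM per kb in DHPG inputs. Scn2a came next, at 32.5 to 55.9 CPM per kb over the input groups, and did not overlap Scn3b except in depolarized Pan-TurboID inputs. In resting inputs the order then ran Scn2b, Scn3a, Scn8a and Scn1a. In the resting PSD95-TurboID inputs of the KCl experiment, the neighbours Scn2a and Scn2b overlapped in their ranges, as did Scn3a and Scn8a, and with Pan-TurboID none of these neighbours overlapped. In resting knockdown inputs it was Scn2b and Scn3a that overlapped. Among pulldowns Scn2a took first place in depolarized PSD95-TurboID pulldowns, where its range overlapped that of Scn3b, and in depolarized knockdown pulldowns, where it did not, at 116 against 89.5 CPM per kb. Depolarized groups differed from resting ones in the tail of the order. Scn8a, which preceded Scn1a in every resting and DHPG group, followed Scn1a in 5 of the depolarized groups, with overlapping ranges in each.

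**Figure D1:**
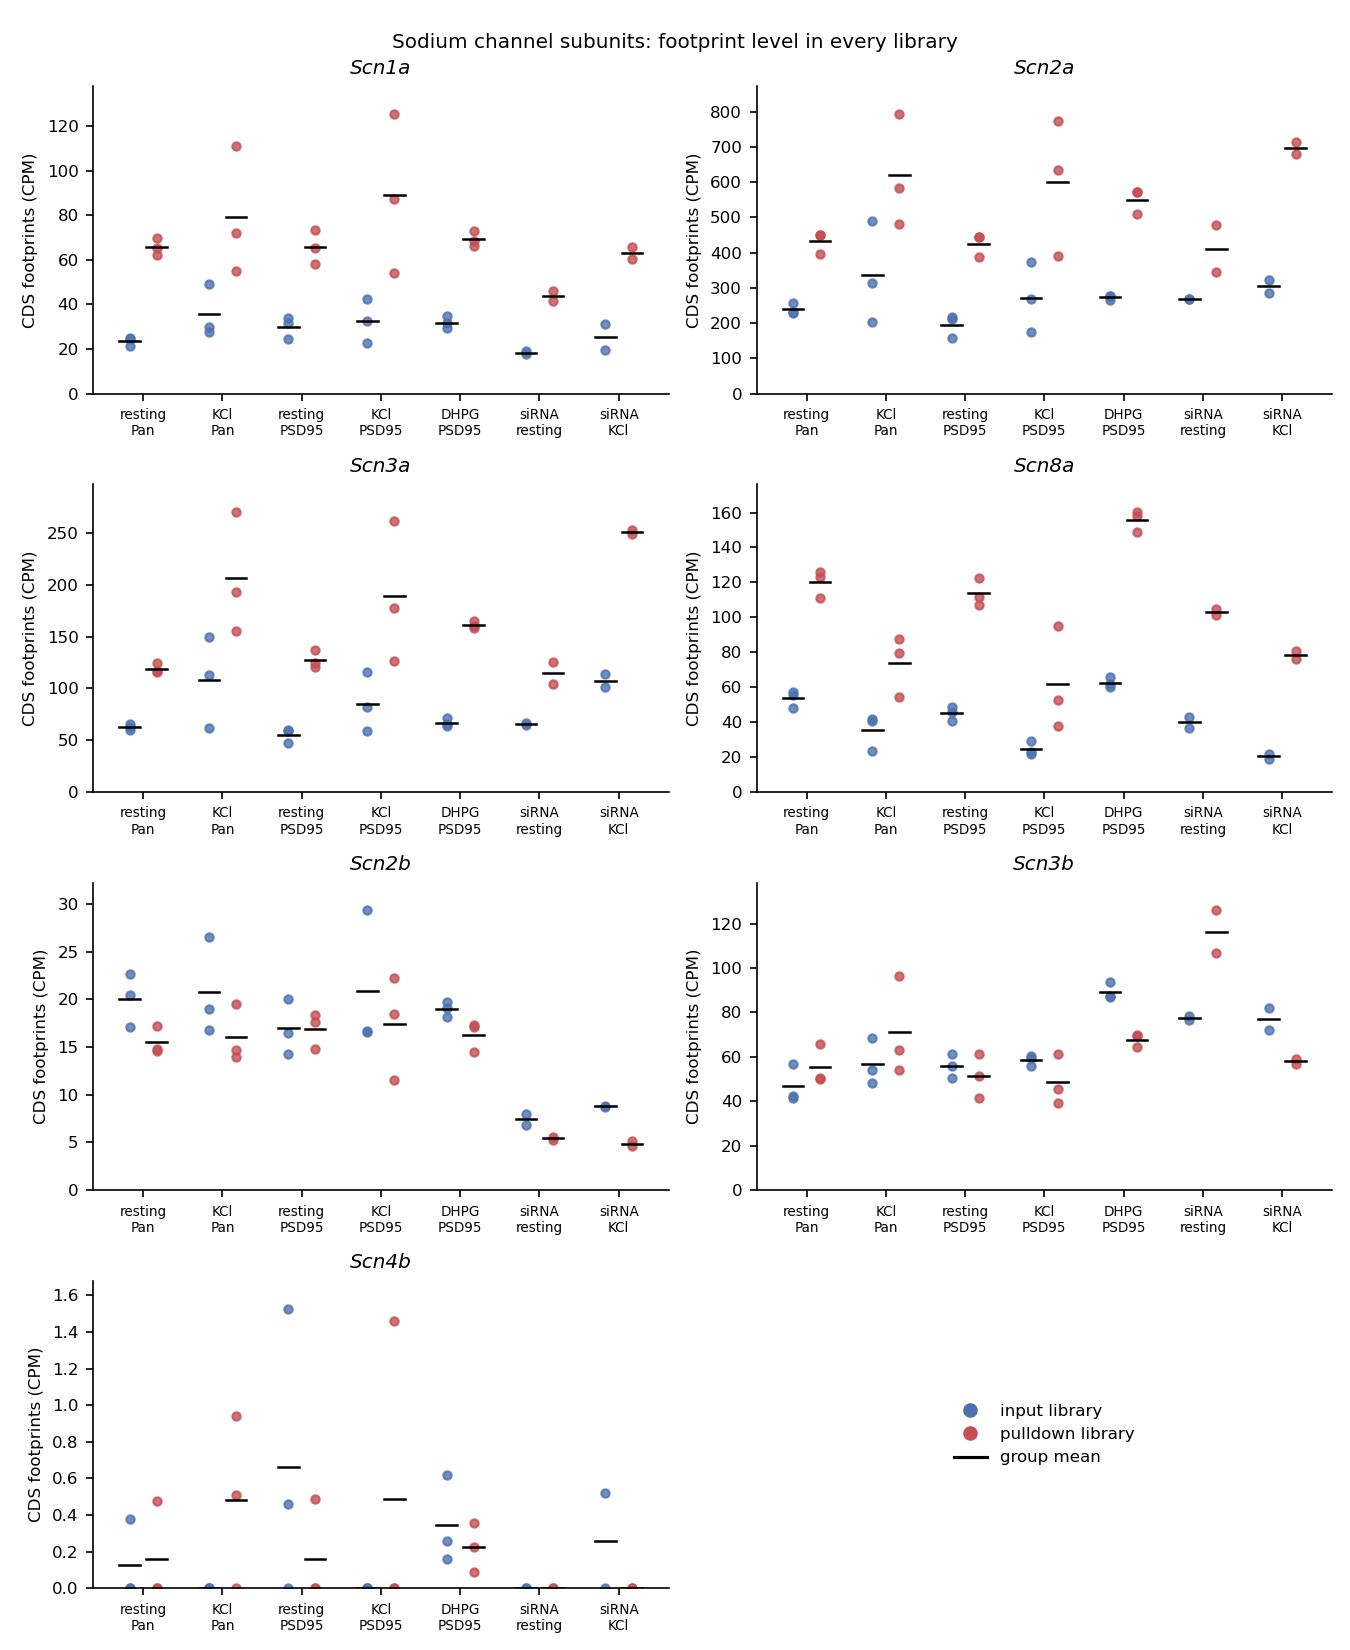
Footprint level of each subunit in every library (vertical axis, CPM of CDS counts on a linear scale from 0) by group (horizontal axis). Points are libraries, blue for input and red for pulldown, and black bars are group means. Group means of the 4 alpha subunits are higher in pulldowns than in inputs throughout, and Scn4b stays at or below 1.53 CPM.

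The first question was whether footprints of the subunits were more or less frequent among biotinylated monosomes than in the culture as a whole. All 4 alpha subunits had a higher level in the pulldown than in its same-numbered input in 19 of 19 pairs of libraries. The median ratio was 2.06-fold for Scn2a (range 1.28 to 2.46), 2.17-fold for Scn3a (1.62 to 2.61), 2.37-fold for Scn8a (1.73 to 4.28) and 2.42-fold for Scn1a (1.72 to 3.32). The beta subunits did not follow. Scn2b had a median ratio of 0.776 and was above 1 in 4 of 19 pairs, and Scn3b had a median ratio of 0.925 and was above 1 in 9 of 19 pairs. These are ratios of CPM, whereas the tests below scaled the libraries further. Of the 19 pairs 12 were of the KCl experiment. In the DHPG and knockdown experiments a shared number was not taken as a true pairing.

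With PSD95-TurboID in resting neurons, Scn8a lay at 40.8, 45.8 and 48.7 CPM in inputs and at 107, 112 and 123 CPM in pulldowns. The groups did not overlap, and the log2 fold change was 1.37 (SE 0.28, FDR = 0.00361, edgeR). Scn2a lay at 158, 212 and 216 CPM in inputs and at 387, 444 and 445 CPM in pulldowns, a log2 fold change of 1.16 (SE 0.31, FDR = 0.0108, edgeR). Scn3a changed by 1.24 and Scn1a by 1.17 on the log2 scale, with edgeR FDR values of 0.00755 and 0.0117. All 4 alpha subunits were thus called higher, and neither Scn2b (log2 fold change 0.03) nor Scn3b (-0.09) was called. Over all genes tested, 25% were called in this comparison in either direction.

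After depolarization the PSD95-TurboID pulldowns again held more alpha subunit footprints than their inputs. The log2 fold changes were 1.50 for Scn1a, 1.19 for Scn2a, 1.19 for Scn3a and 1.37 for Scn8a, with edgeR FDR values from 0.0076 to 0.0182, so that 4 subunits were called higher. The background was 12.6% of genes. Scn2b and Scn3b gave -0.21 and -0.22, and neither was called. These depolarized libraries were spread more widely: Scn2a lay at 174, 268 and 373 CPM in inputs and at 390, 636 and 772 CPM in pulldowns, with replicate 1 the highest in both. Dlg4 had its lowest pulldown level in this same replicate. A smaller part of its counted reads fell on the CDS, 2348011 of 9475681 in the input and 2057107 of 12413197 in the pulldown. In replicates 2 and 3 it was 4708157 of 10713003 and 8804581 of 22587735 in inputs. In their pulldowns it was 7330161 of 23120125 and 3298103 of 8854360. Without replicate 1, 4 subunits were called in both PSD95-TurboID comparisons, in which 2900 and 594 of 12967 genes were called.

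Pan-TurboID pulldowns showed the same direction. In resting neurons the log2 fold changes were 1.53 for Scn1a (FDR = 0.0188, edgeR), 1.21 for Scn8a (FDR = 0.0196), 0.98 for Scn3a (FDR = 0.0437) and 0.90 for Scn2a (FDR = 0.0574), so that 3 subunits were called higher against 9.6% of all genes. In depolarized neurons they were 1.24 for Scn1a (FDR = 0.0252, edgeR), 1.14 for Scn8a (FDR = 0.0229), 0.99 for Scn3a (FDR = 0.043) and 0.93 for Scn2a (FDR = 0.0535), again with 3 called against 8.83% of all genes. There Scn8a lay at 23.1, 40.8 and 41.7 CPM in inputs and at 54.4, 79.8 and 87.3 CPM in pulldowns, without overlap, whereas Scn2a overlapped, at 204, 314 and 490 CPM against 482, 582 and 793 CPM. With the replicate number within a condition as a block, Scn2a was also called in both Pan-TurboID comparisons (FDR = 0.000649 and 0.000349, edgeR). Each such block held the inputs and pulldowns of both ligases, so that it was not a pairing of each input with its own pulldown alone. Scn2b was at -0.32 and -0.30 and Scn3b at 0.29 and 0.39 on the log2 scale, and neither passed the threshold.

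Whether the enrichment with PSD95-TurboID exceeded that with Pan-TurboID was tested as an interaction. For the 6 subunits the difference of the log2 fold changes ran from -0.49 for Scn3b to 0.26 for Scn2a, with SEs of 0.23 to 0.31, and none was called. In this comparison 0.00768% of genes were called, which was 1 gene, Dlg4, whose counts may include the construct. The enrichment of the alpha subunits was therefore not distinguishable between the dendritic and the unlocalized ligase at this precision.

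Long coding sequences as a class were more frequent in pulldowns. Genes with a CDS of at least 5000 nt had a median log2 fold change of 0.65 in resting PSD95-TurboID pulldowns over inputs and of 0.44 in resting Pan-TurboID pulldowns, and 34.8% and 15.1% of them were called higher. Across genes, which are not independent replicates, the log2 fold change correlated with CDS length (Spearman's rho of 0.53 and 0.52 in these comparisons). The 4 alpha subunits, with 5844 to 6030 nt of CDS, lay above the upper quartile of the long genes in both comparisons, which was 1.10 with PSD95-TurboID and 0.86 with Pan-TurboID. They also did in depolarized PSD95-TurboID pulldowns (1.08). In depolarized Pan-TurboID pulldowns Scn2a (0.93) lay below that quartile (0.98), and with DHPG Scn1a and Scn2a lay below it (1.46). With the trend on CDS length removed, 3 of the subunits were called in resting and 1 in depolarized PSD95-TurboID pulldowns, and 2 and 0 in the Pan-TurboID pulldowns. Over all 13019 genes the calls were then 1844, 685, 395 and 344 in these 4 comparisons, against 3259, 1640, 1250 and 1150 with the trend kept. The part of CDS length in the result was not tested beyond this. Without replicate 3 the calls over all genes were lost along with those of the subunits: no subunit was called, and of 13213 genes 0, 3, 0 and 0 were called in the 4 comparisons by edgeR, although 1937 to 2821 had an unadjusted p under 0.05. Without replicate 2 the counts of subunits were 1 and 3 with PSD95-TurboID, where 1110 and 1663 of 12816 genes were called, and 0 and 0 with Pan-TurboID, where no gene was called by edgeR and 2463 and 2803 had an unadjusted p under 0.05.

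In the DHPG experiment the alpha subunits were also higher in the pulldown. Scn8a lay at 60.0, 61.9 and 65.9 CPM in inputs and at 149, 158 and 160 CPM in pulldowns, and Scn2a at 267, 277 and 277 CPM against 509, 571 and 571 CPM. The log2 fold changes were 1.53 for Scn8a, 1.49 for Scn3a, 1.33 for Scn1a and 1.22 for Scn2a, with SEs of at most 0.09 and edgeR FDR values of at most 2.7e-10. Scn3b was lower, at 64.2, 69.4 and 69.7 CPM in pulldowns against 87.0, 87.2 and 93.7 CPM in inputs (log2 fold change -0.19, FDR = 0.0328, edgeR). With a replicate block this FDR was 0.0522. Scn2b did not change beyond its SE of 0.12. Hence 5 subunits were called, 4 higher and 1 lower, in a comparison that called 79.8% of all genes. Among the long genes of this comparison 81.6% were called higher, and their median log2 fold change was 1.11. With the trend on CDS length removed, 6 subunits were called higher and 0 lower, with Scn3b at 0.66 and Scn2b at 0.84, and 8226 of 12273 genes were called, 4241 of them higher. Without replicate 2 Scn3b was not called, where 8973 of 12335 genes were.

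In the knockdown experiment the resting pulldowns held more footprints than their inputs for 5 of the 6 subunits tested. Scn8a lay at 36.8 and 42.7 CPM in inputs and at 101 and 105 CPM in pulldowns (log2 fold change 1.48, SE 0.17, FDR = 1.5e-07, edgeR). Scn1a changed by 1.37, Scn3a by 0.93 and Scn2a by 0.74 on the log2 scale. Scn3b also rose, from 76.4 and 78.3 CPM to 107 and 126 CPM (log2 fold change 0.69, FDR = 0.000566, edgeR). The background here was 45.5% of genes. Of the long genes 68.1% were called higher, and their median change was 0.98 on the log2 scale, so that Scn3a and Scn2a lay below that median. With the length trend removed 2 subunits and 4010 of 12239 genes were called, against 5574 genes with it, and Scn2a was at -0.11. In depolarized knockdown neurons the 4 alpha subunits were called and Scn3b was not, against 48.8% of genes and 67.8% of long genes called higher, whose median log2 fold change was 1.05. There Scn8a changed most, from 18.7 and 21.8 CPM to 75.9 and 80.8 CPM (log2 fold change 2.04, SE 0.21), and Scn3b lay at 71.9 and 81.8 CPM in inputs and at 56.8 and 59.1 CPM in pulldowns (log2 fold change -0.31, FDR = 0.14, edgeR). Leaving out a replicate left single libraries, which were then fitted together with the untreated ones, and in these fits no subunit was called. They called few genes of any kind, 60 and 66 of 13709 without replicate 1 and 35 and 37 of 13734 without replicate 2.

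**Figure D2:**
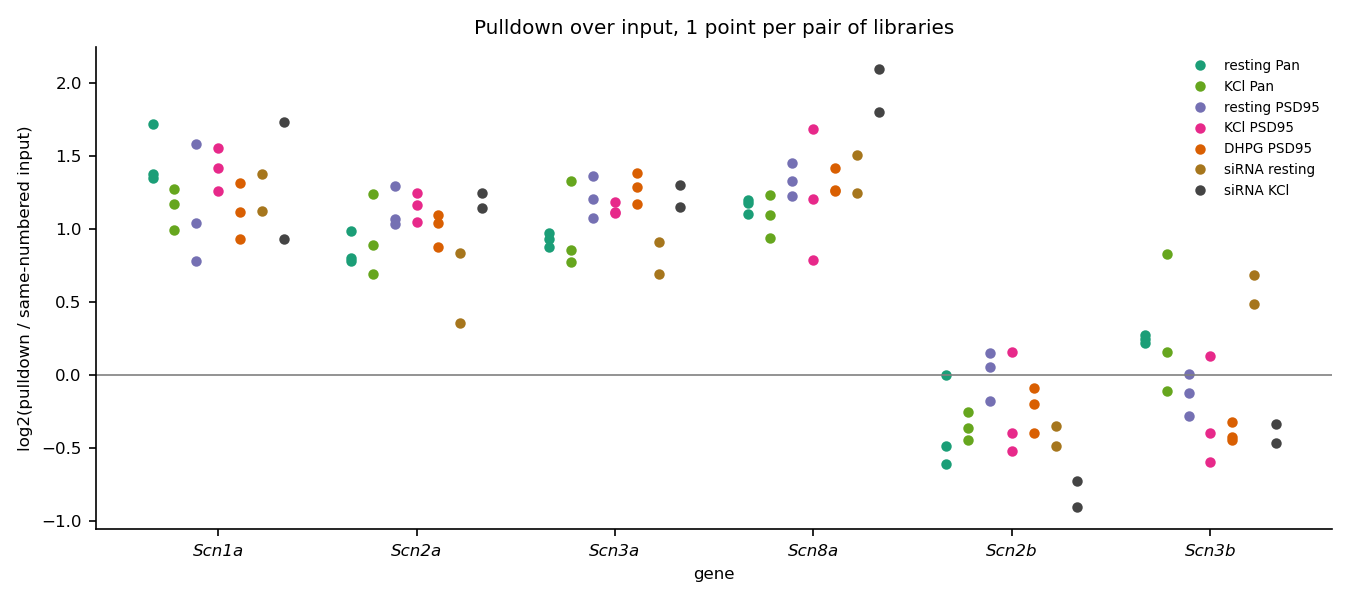
The log2 ratio of pulldown to same-numbered input (vertical axis) for the 6 subunits that were tested (horizontal axis). Each point is 1 of 19 pairs of libraries, coloured by condition and ligase. All points of Scn1a, Scn2a, Scn3a and Scn8a lie above 0, whereas those of Scn2b and Scn3b lie on both sides of it.

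The next question was how the footprints of the subunits differed between resting neurons and neurons depolarized with KCl for 1 h. The labels name no silencing for the resting libraries, so that KCl, the silencing drugs and the recovery after KCl cannot be told apart. In the inputs of both ligases, Scn8a fell and Scn3a rose. The lowest, median and highest levels of Scn8a were 40.8, 48.5 and 57.2 CPM in the 6 resting inputs and 21.9, 26.2 and 41.7 CPM in the 6 depolarized inputs. The ranges overlapped between 40.8 and 41.7 CPM, and the log2 fold change was -0.71 (SE 0.20, FDR = 0.016, edgeR). Scn3a went from 47.0, 59.5 and 65.4 CPM to 58.4, 97.5 and 149 CPM, with overlapping ranges and a log2 fold change of 0.75 (SE 0.22, FDR = 0.0182, edgeR). The 149 CPM came from replicate 1 with Pan-TurboID, in which only 2108267 of 16918170 counted reads fell on the CDS. The part of this in the result was not tested. Scn2a gave 0.53 (FDR = 0.0939), Scn1a 0.39, Scn3b 0.21 and Scn2b 0.20, and these were not called. So 1 subunit was called higher and 1 lower, against a background of 15.4% of genes. The inputs of both ligases were fitted as separate libraries although they share 3 replicate numbers, so that these FDR values may be too small. Long genes had a median log2 fold change of -0.22 here, and with the length trend removed all 4 alpha subunits were called, with Scn8a at -0.49 and Scn1a, Scn2a and Scn3a at 0.59, 0.72 and 0.94, among 1803 of 13019 genes called. Without replicate 1 there was 1 call among the subunits and 2095 among 12967 genes. Without replicate 2 or 3 there was none among the subunits, and 888 of 12816 and 517 of 13213 genes were called. The 6 GABAergic markers, all with counts, summed to 1517 to 2640 CPM in resting and 2136 to 2975 CPM in depolarized inputs, and the 7 oligodendrocyte lineage markers, with Mog at 0, to 235 to 579 and 153 to 401 CPM. Their part in these results was not tested.

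Pulldowns moved the same way by their values, without reaching the threshold. With PSD95-TurboID, Scn8a lay at 107, 112 and 123 CPM at rest and at 37.9, 52.5 and 94.8 CPM after KCl. The groups did not overlap (log2 fold change -0.87, SE 0.28, FDR = 0.0597, edgeR). Scn3a gave 0.60, Scn2a 0.53 and Scn1a 0.46, and no subunit was called, against 6.6% of genes. With Pan-TurboID, Scn8a lay at 111, 123 and 126 CPM at rest and at 54.4, 79.8 and 87.3 CPM after KCl (log2 fold change -0.63, FDR = 0.209, edgeR). Scn3a lay at 116, 116 and 124 CPM and then at 155, 193 and 270 CPM, again without overlap (log2 fold change 0.87, FDR = 0.0954, edgeR). No subunit was called, against 5.03% of genes. Scn2b and Scn3b were within 0.43 of 0 in both. A replicate block across conditions, added after the data were seen, called Scn8a with PSD95-TurboID (FDR = 0.0161) and Scn3a with Pan-TurboID (FDR = 0.0463). For PSD95-TurboID the count over all genes with that block is not reported here.

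The change of the PSD95-TurboID enrichment upon depolarization was tested as a further interaction. It was 0.00 for Scn8a, 0.03 for Scn2a, -0.05 for Scn3a and 0.33 for Scn1a on the log2 scale, with SEs of 0.32 to 0.45. No subunit and no gene was called by edgeR, a background of 0% of genes, although 236 genes had an unadjusted p under 0.05. DESeq2 and edgeR's likelihood ratio test each called 1 gene.

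Within the alpha subunits, the share of Scn8a was lower and that of Scn3a higher in depolarized than in resting libraries. When the 4 alpha subunits were set per kilobase and summed to 100% in each library, Scn8a made up 14.2% ± 1.81 (SD, n = 6) of the resting inputs, from 11.8% to 16.3%, and 6.68% ± 1.35 (SD, n = 6) of the depolarized inputs, from 5.26% to 8.38%. In pulldowns it was 16.0% ± 1.02 at rest and 7.03% ± 1.08 after KCl (SD, n = 6 each). Scn3a made up 17.1% ± 0.336 of resting and 21.3% ± 1.07 of depolarized inputs (SD, n = 6 each). In pulldowns it was 17.2% ± 0.902 and 21% ± 0.974. Neither Scn8a nor Scn3a overlapped between resting and depolarized libraries in inputs or in pulldowns. Scn2a made up most of the alpha footprints throughout, at 61% ± 3.07 in resting and 64.6% ± 1.85 in depolarized inputs, and Scn1a stayed at 7.71% ± 2.20 and 7.48% ± 1.01. These shares used the same libraries as the tests above and are given as a description.

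The knockdown libraries gave the same pattern of shares. Scn8a was at 10.2% ± 0.960 in resting and 4.42% ± 0.192 in depolarized knockdown inputs, and at 15.5% ± 2.31 and 7.22% ± 0.490 in their pulldowns (SD, n = 2 each). Scn3a was at 17.1% ± 0.695 and 24.0% ± 0.499 in those inputs, and at 17.5% ± 0.637 and 23.6% ± 0.325 in the pulldowns. DHPG libraries had shares near those of resting libraries, with Scn8a at 14.4% ± 0.245 of inputs and 16.7% ± 1.02 of pulldowns and Scn3a at 15.7% ± 0.669 and 17.6% ± 0.737 (SD, n = 3 each). KCl and DHPG were not tested against each other.

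**Figure D3:**
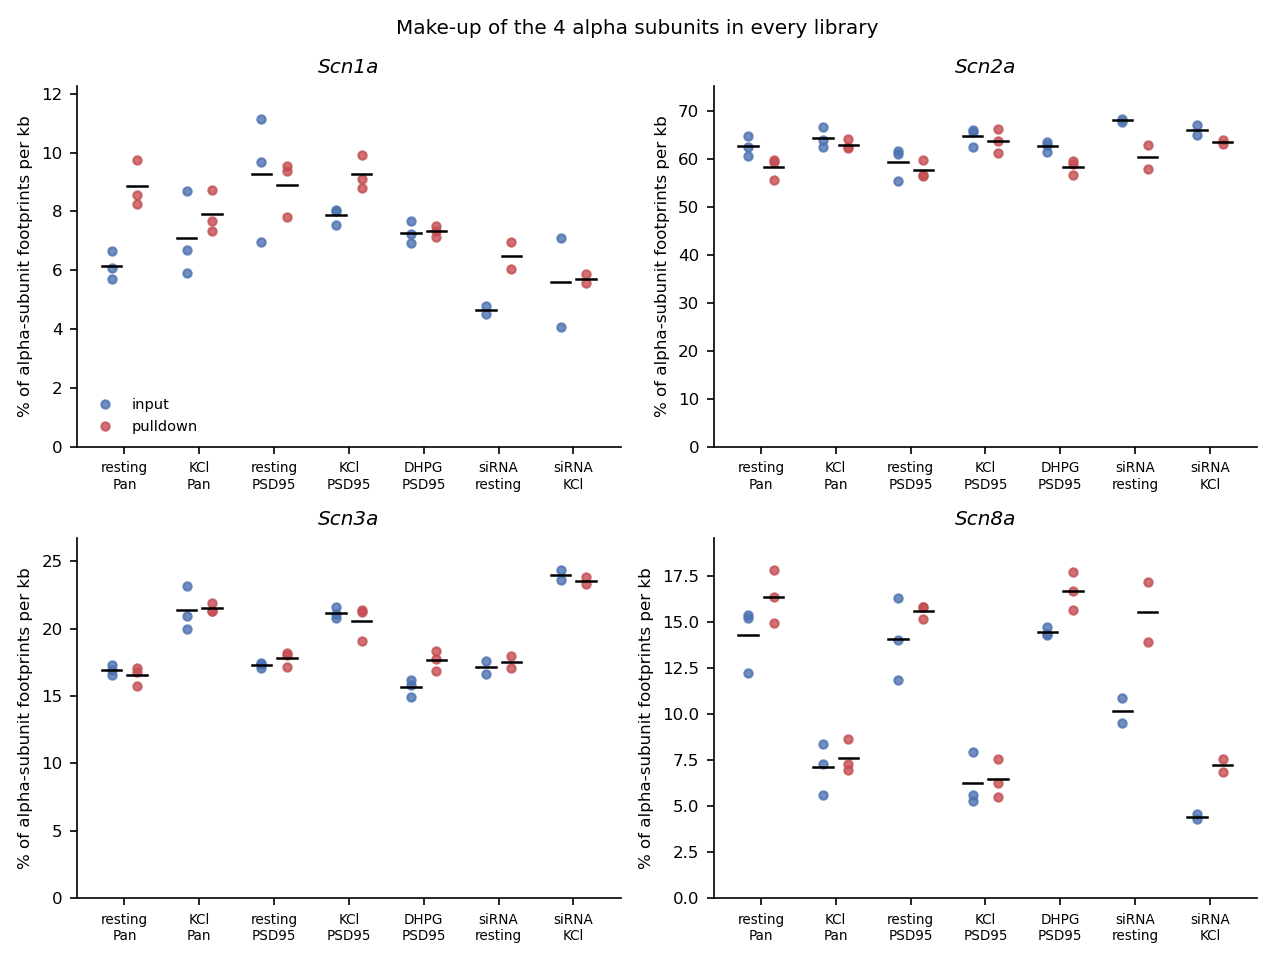
Share of each alpha subunit in the summed footprints per kilobase of the 4 alpha subunits (vertical axis, %, from 0 with a different scale in each panel) by condition and ligase (horizontal axis). Points are libraries, blue for input and red for pulldown, and black bars are means. In the Scn8a panel no KCl point exceeds 8.63%, and no resting or DHPG point of neurons without siRNA is below 11.8%.

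Depolarization was also examined in the knockdown neurons on their own. In inputs Scn8a fell from 36.8 and 42.7 CPM to 18.7 and 21.8 CPM (log2 fold change -0.95, SE 0.20, FDR = 0.00126, edgeR) and Scn3a rose from 64.2 and 66.9 CPM to 101 and 114 CPM (log2 fold change 0.73, SE 0.14, FDR = 0.000263, edgeR). These were the calls in that comparison, 1 in each direction, against 19.3% of genes. In pulldowns Scn3a rose from 104 and 126 CPM to 249 and 253 CPM (log2 fold change 1.12, FDR = 5.7e-07, edgeR) and Scn2a from 344 and 478 CPM to 680 and 713 CPM (0.76, FDR = 1.7e-05). Scn3b fell from 107 and 126 CPM to 56.8 and 59.1 CPM (log2 fold change -0.99, FDR = 7.7e-05, edgeR). Scn8a lay at 101 and 105 CPM and then at 75.9 and 80.8 CPM, which was not called (FDR = 0.119). Thus 2 subunits were called higher and 1 lower, against 22.2% of genes. In fits that left out a replicate, made together with the untreated libraries, no subunit was called in either comparison, and 7 to 25 of all genes were.

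DHPG libraries were set against resting PSD95-TurboID libraries of the KCl experiment, so that treatment and experiment cannot be told apart. In inputs Scn3b was higher, at 87.0, 87.2 and 93.7 CPM against 50.6, 55.9 and 61.1 CPM (log2 fold change 0.78, SE 0.13, FDR = 0.000257, edgeR). Scn2a (0.59), Scn8a (0.57) and Scn3a (0.37) were also called higher, whereas Scn1a (0.21) and Scn2b (0.28) were not. These 4 calls stood against 32.8% of genes. Without any 1 of the 3 replicate numbers Scn3a was not called and the other 3 were, with 2553 to 2910 genes called in all. In pulldowns Scn8a (0.69), Scn3b (0.63), Scn2a (0.61) and Scn3a (0.57) were called higher, with edgeR FDR values of at most 0.000812, and Scn1a (0.30) and Scn2b (0.19) were not, against 47.7% of genes. Of the long genes 41.6% were called higher and 20.4% lower in pulldowns, and the alpha subunits lay below their upper quartile (0.72). In inputs 18.5% of long genes were called higher and 29.5% lower. The 6 astrocyte markers, with S100b at 0 in the former, summed to 80.7 to 85.3 CPM in DHPG inputs and to 282 to 725 CPM in resting inputs, and the 7 oligodendrocyte lineage markers, with Mog at 0 in both, to 43.4 to 46.6 CPM and 235 to 579 CPM. The 6 neuronal markers summed to 9287 to 9487 CPM in DHPG inputs and to 7379 to 8063 CPM in resting inputs, without overlap. The resting values of these marker sums cover both ligases. In pulldowns the 5 excitatory markers summed to 779.6 to 849 CPM with DHPG against 1013 to 1505 CPM at rest, without overlap. The astrocyte markers, with S100b at 0 in both, summed there to 78.2 to 87.0 CPM against 281 to 886 CPM, and the oligodendrocyte lineage markers to 21.5 to 28.6 CPM against 118 to 495 CPM. The part of these markers in the differences was not tested.

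The knockdown libraries were likewise set against untreated PSD95-TurboID libraries of the KCl experiment, and no libraries with a control siRNA were used here, so that knockdown, siRNA treatment and experiment cannot be told apart. Scn2b was the subunit with the lowest values relative to untreated neurons. It lay at 6.80 and 8.01 CPM in resting knockdown inputs and at 14.3, 16.5 and 20.0 CPM in untreated ones, which was not called (log2 fold change -1.16, FDR = 0.0726, edgeR). None of the 6 subunits was called in resting inputs, against 3.9% of genes, or in depolarized inputs, against 5.32%. In resting pulldowns Scn2b was lower, at 5.30 and 5.55 CPM against 14.8, 17.6 and 18.3 CPM (log2 fold change -1.58, SE 0.40, FDR = 0.0131, edgeR), and Scn3b was higher, at 107 and 126 CPM against 41.5, 51.2 and 61.4 CPM (1.23, SE 0.21, FDR = 0.000328). The background was 9.15% of genes. Without replicate 1 of both experiments 1 of these calls was made, and without replicate 2 none, where 395 and 118 genes were called in all. In depolarized pulldowns Scn2b was lower, at 4.58 and 5.17 CPM against 11.5, 18.5 and 22.2 CPM (log2 fold change -1.77, SE 0.42, FDR = 0.00562, edgeR), and no other subunit was called, against 18.9% of genes. Without replicate 1 or 2 this call was not made, and 1190 and 88 genes were called in all. Scn2b rested on 11 to 63 counts in each knockdown library. Long genes had a median log2 fold change of 0.29 in resting and of 0.48 in depolarized knockdown over untreated pulldowns. Scn2b and Scn3b each have a CDS of 648 nt. The part of CDS length in these calls was not tested beyond the fit without the length trend. The 6 GABAergic markers, all with counts, summed to 631 to 773 CPM in knockdown inputs and to 1517 to 2640 CPM in resting inputs of the KCl experiment. In pulldowns they summed to 669.5 to 956 CPM, with Pvalb at 0, against 1569 to 2844 CPM in resting and 1904 to 2926 CPM in depolarized pulldowns of the KCl experiment. The 5 excitatory markers summed to 858 to 938 CPM in knockdown pulldowns, against 1013 to 1505 CPM in resting and 1040 to 1456 CPM in depolarized ones. The 6 microglial markers summed to 9.74 to 20.1 CPM in knockdown inputs and to 0.758 to 3.82 CPM in resting inputs, in which Cx3cr1 and Tmem119 were at 0. The 7 oligodendrocyte lineage markers summed to 171.5 to 186.5 CPM in knockdown inputs and 235 to 579 CPM in resting inputs, with Mog at 0 in both. In depolarized inputs of the KCl experiment they summed to 153 to 401 CPM, a range that holds the knockdown values, also with Mog at 0. The part of these cells in the result was not tested.

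The distribution of footprints along the transcript was examined next. Upstream open reading frames in the 5′ untranslated region (5′ UTR) can carry ribosomes that do not translate the CDS. As the 5′ end of each read was counted, footprints of ribosomes at the start codon of the CDS fall there too. The counts do not separate these from ribosomes on upstream open reading frames. The 5′ UTRs of the longest transcripts held 7 ATG triplets in Scn1a (252 nt), 7 in Scn2a (296 nt), 5 in Scn3a (277 nt), 3 in Scn8a (219 nt), 3 in Scn2b (242 nt) and 2 in Scn3b (411 nt). Scn4b, with its few counts, was left out of what follows. The share of 5′ UTR counts in the sum of 5′ UTR and CDS counts was highest for Scn3b, at 37.5% to 63.6% over the 19 inputs. It was lowest for Scn1a and Scn8a, with medians of 10.8% and 11.9%. The share also depends on the lengths of the 2 parts, which were 411 nt of 5′ UTR and 648 nt of CDS in Scn3b. In Scn1a they were 252 nt and 6030 nt. As the shares were not scaled to length, their order between genes is no measure of footprint density. Their relation to the number of ATG triplets was not tested. Pulldowns had the lower share in 19 of 19 pairs for Scn2a, Scn3a, Scn8a and Scn3b, in 18 of 19 for Scn1a and in 16 of 19 for Scn2b. Pooled over libraries, the share went from 19.1% in inputs to 4.10% in pulldowns for Scn2a, from 47.8% to 25% for Scn3b and from 33.4% to 16.6% for Scn2b. Over 9702 genes with enough counts the median share went from 18.7% to 7.98%, and 94.2% of genes had the lower share in pulldowns, so that this direction was not particular to the channel genes.

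**Figure D4:**
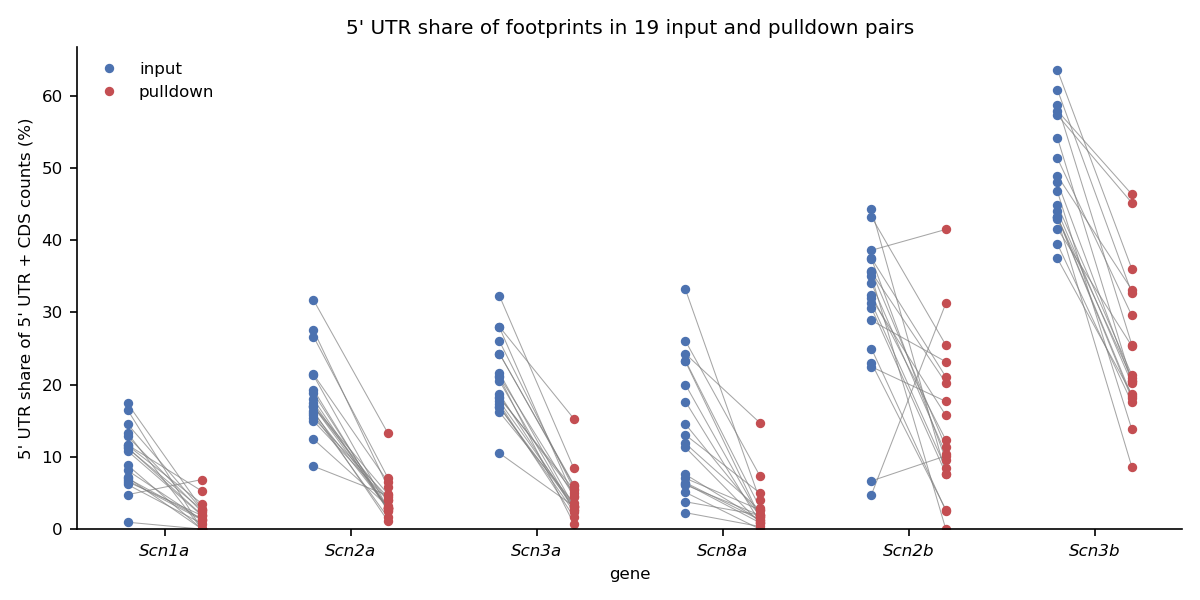
Share of 5′ UTR counts in 5′ UTR plus CDS counts (vertical axis, %) for 6 subunits (horizontal axis). Each grey line joins an input library (blue) to its same-numbered pulldown (red), for 19 pairs. Lines fall from input to pulldown in all pairs of Scn2a, Scn3a, Scn8a and Scn3b, and Scn3b starts from the highest shares.

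Between resting and depolarized inputs the 5′ UTR share was compared by an exact two-sided permutation test over 6 and 6 libraries, in which the smallest p possible was 0.00216. The inputs of both ligases were taken as separate libraries although they share 3 replicates, so that these p-values may be too small. For Scn8a it was 10.8% ± 3.16 (SD, n = 6) at rest, from 6.44% to 14.5%, and 21.5% ± 10.4 (SD, n = 6) after KCl, from 2.27% to 33.2%, and the unadjusted exact p was 0.0368. The 6 depolarized libraries thus spanned values both below and above all resting ones. It was 1 of 6 such tests, and the other 5 subunits gave unadjusted exact p-values of 0.232 or more. Scn2a was at 16.9% ± 4.68 and 21.6% ± 7.99 and Scn3b at 54.3% ± 7.20 and 50.8% ± 7.27. In the knockdown inputs the Scn8a share was 5.09% and 7.03% at rest and 17.7% and 23.2% after KCl, from 36 and 31 counts in the 5′ UTR in all.

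Within the CDS of the alpha subunits, the first coding exon was the most densely covered in inputs. The 4 alpha subunits each have 26 coding exons in the annotated longest transcript. In the 12 inputs of the KCl experiment the first coding exon of Scn2a had 5.02 ± 1.72 times the mean density of its CDS (SD, n = 12), and in the 12 pulldowns 1.19 ± 0.673 times. For Scn3a the values were 4.88 ± 1.73 and 1.12 ± 0.686, for Scn1a 3.36 ± 1.75 and 1.13 ± 0.724, and for Scn8a 2.98 ± 1.82 and 0.992 ± 0.423. The second coding exon was sparse in pulldowns, at 0.110 ± 0.070 for Scn2a, 0.168 ± 0.200 for Scn1a, 0.0909 ± 0.121 for Scn3a and 0.0855 ± 0.131 for Scn8a. In inputs it was at 0.369 ± 0.297 for Scn2a, 0.407 ± 0.592 for Scn8a, 0.597 ± 0.874 for Scn1a and 0.841 ± 0.808 for Scn3a. Over all 38 libraries this exon held 299 counts in Scn2a, 117 in Scn3a, 67 in Scn8a and 58 in Scn1a. Its values therefore do not show a difference between the genes. Scn2b had 2.57 ± 0.932 times its mean density in the first coding exon of inputs and 1.30 ± 0.711 times in pulldowns. In Scn3b the first coding exon lay below the mean in both, at 0.611 ± 0.331 and 0.301 ± 0.221, and the last was the densest in inputs, at 1.40 ± 0.398.

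The share of CDS counts on exons whose midpoint lay before the middle of the coding sequence summarised this pattern. For Scn2a it was lower in the pulldown in 12 of 12 pairs, at 50.0% ± 4.18 against 58.9% ± 6.75 (SD, n = 12 each), a difference of -8.86 percentage points (exact sign-flip permutation test, two-sided, p = 0.000488, the smallest that 12 pairs allow). The difference was -8.46 points for Scn3a (exact p = 0.00147), -7.59 for Scn1a (exact p = 0.0171), -20.1 for Scn2b (exact p = 0.00147) and -6.77 for Scn3b (exact p = 0.0083). For Scn8a it was 0.189 points with an SD of 11.6, and pulldowns were higher in 6 of 12 pairs (exact p = 0.963). These were 6 unadjusted tests. Over 6657 genes with enough counts in both kinds of library the median pooled difference was -13.3 points, and 94.6% of genes had the lower share in pulldowns. Over the 450 of them with a CDS of at least 5000 nt it was -9.14 points. Pooled in the same way, Scn2a gave -8.60, Scn3a -7.97, Scn1a -9.78 and Scn8a -1.78 points.

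**Figure D5:**
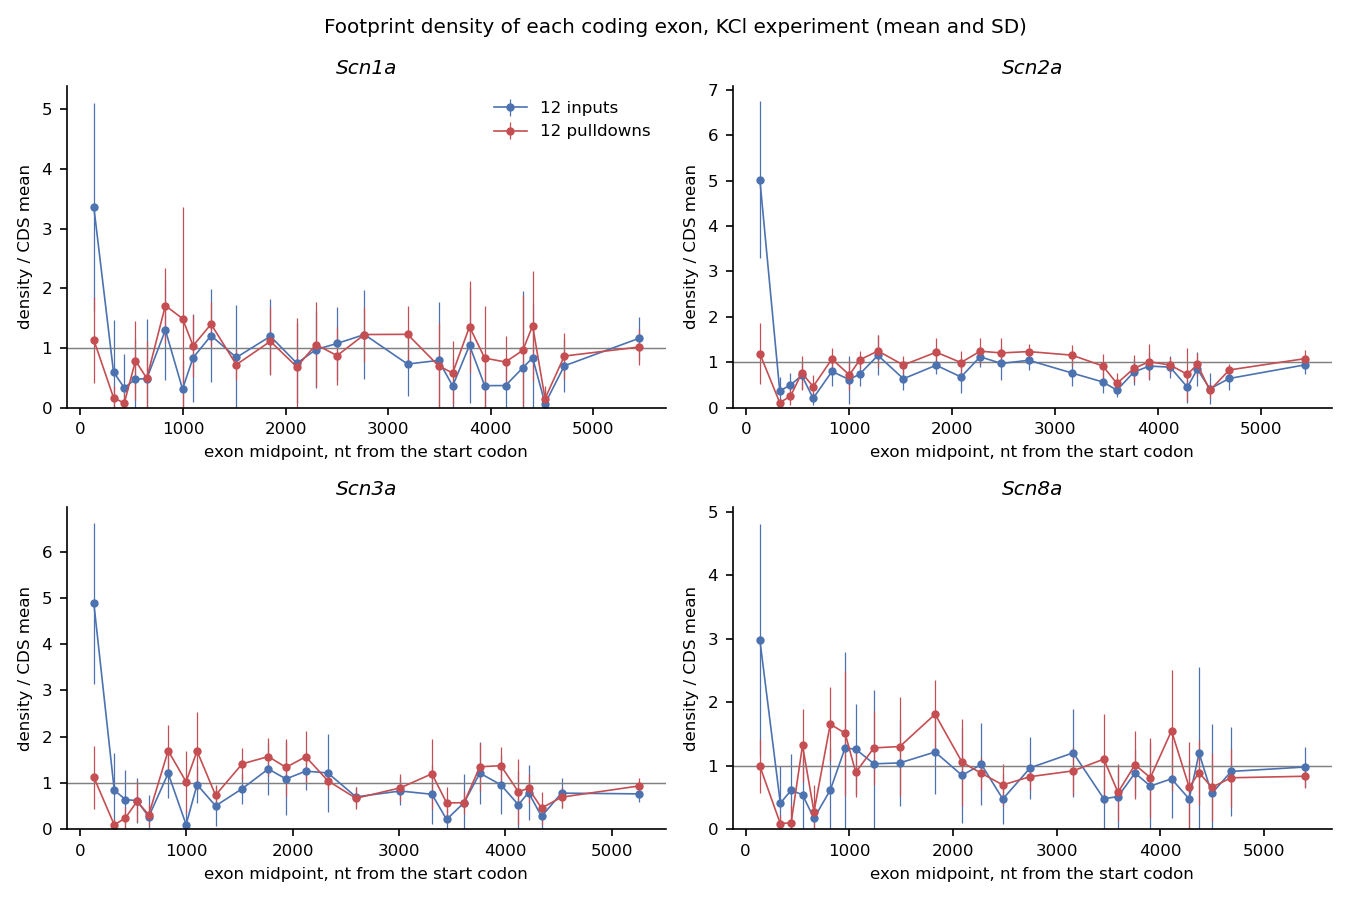
Footprint density of each coding exon relative to the mean density of the CDS (vertical axis) against the position of the exon midpoint in nt from the start codon (horizontal axis) for the 4 alpha subunits. Points are means and bars are SDs over 12 inputs (blue) and 12 pulldowns (red) of the KCl experiment, with bars cut at 0, and the grey line marks the CDS mean. The first exon stands at about 3 to 5 times the mean in inputs and near the mean in pulldowns.

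Sequence shared between genes limits how exon counts can be assigned. Of all windows of 30 nt in the exons, 21.4% were shared exactly with another gene for Scn3a, 19% for Scn2a, 13.7% for Scn1a and 1.25% for Scn8a, and none for the beta subunits. How reads matching several places were treated is not given in the sources used here. The levels of Scn1a, Scn2a and Scn3a are uncertain at least to that extent. For the Scn3a exon printed above the value was 82.5%, although an exon of other Scn2a transcripts has the same 92 nt. The percentages are therefore lower bounds. Reads of at least 25 nt were counted, and windows shorter than 30 nt were not examined.

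The exon printed above held 711 counts in Scn2a, 131 in Scn3a and 183 in Scn8a over the 38 libraries, and those of Scn2a are not among the CDS counts used for that gene. As its sequence is the same in Scn2a and Scn3a, the first 2 values are uncertain as a split between these genes.

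The remaining sodium channel genes and the known partners of the channels were described by counts. Of 11 further genes, which were other alpha and beta subunits and the sodium leak channel Nalcn with its auxiliary subunits, 8 passed the filter in the KCl experiment. Of these, 4 were higher in resting PSD95-TurboID pulldowns than in inputs and none was lower, against 25% of all genes called in either direction, and their median log2 fold change was 0.90 against -0.05 over all genes. They included Unc80 (1.58) and Nalcn (1.46), which encode a scaffold and the pore of the leak channel. The counts of higher genes were 2 in depolarized PSD95-TurboID, 2 in resting Pan-TurboID and 1 in depolarized Pan-TurboID pulldowns, where 12.6%, 9.6% and 8.83% of all genes were called. None of the 8 was called in the KCl response of inputs or of either pulldown, where 15.4%, 6.6% and 5.03% of all genes were called. In the DHPG experiment 6 of 7 were higher in the pulldown and 1, Fam155a (-0.32), was lower, where 79.8% of all genes were called. In the knockdown experiment 4 of 7 were higher in resting and 3 in depolarized pulldowns, against 45.5% and 48.8% of all genes called. In DHPG against resting libraries 3 were higher in inputs and 3 in pulldowns (32.8% and 47.7% of all genes called), and after KCl in knockdown neurons 1, Unc79, was higher in inputs (0.66) and in pulldowns (0.64), where 19.3% and 22.2% of all genes were called. In knockdown against untreated neurons none was higher, and 1 was lower in resting inputs, in depolarized inputs and in depolarized pulldowns, where 3.9%, 5.32% and 18.9% of all genes were called.

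Of 22 partner genes of the axon initial segment and of channel regulation, all of which were tested, 4 were higher and 4 lower in resting PSD95-TurboID pulldowns, with a median log2 fold change of -0.10. The share of all genes called in each comparison is the one given above. The counts of higher and lower partners were 3 and 2 in depolarized PSD95-TurboID pulldowns, 2 and 4 in resting and 1 and 4 in depolarized Pan-TurboID pulldowns, 9 and 9 with DHPG, where 79.8% of all genes were called, and 8 and 10 in resting and 6 and 8 in depolarized knockdown pulldowns. In resting PSD95-TurboID pulldowns the higher ones included Sptbn4, which encodes the beta-IV spectrin of the initial segment (1.26). The lower ones included Calm3 (-1.39), whose CDS of 450 nt is short. In the KCl response of inputs none was higher and 4 were lower, among them Cntn1, a cell adhesion molecule of axons (-0.56, FDR = 0.003, edgeR). In PSD95-TurboID pulldowns 1 partner was lower after KCl, and in Pan-TurboID pulldowns none was called. In knockdown neurons Cntn1 (-0.69) was again among the 5 partners lower in depolarized inputs, while 4 were higher, and in their pulldowns 6 were lower and 4 higher. In DHPG against resting libraries 10 partners were higher and 3 lower in inputs, and 8 were higher and 7 lower in pulldowns. In knockdown against untreated inputs 1 partner was higher and 2 lower at rest, and 1 higher and 1 lower after KCl. In depolarized pulldowns 1 was higher and 5 lower. In resting pulldowns 2 were lower, Nrcam (-1.52) and Nfasc (-1.04), which encode adhesion molecules of the initial segment and node.

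For likeness, the 14 group means of log2 CPM of each of 7697 genes were correlated with those of the alpha and the beta subunit of the highest level per kilobase. Scn2a was most like Slc16a1 (Pearson's r = 0.983), which encodes a monocarboxylate transporter, followed by Scn3a (0.974) and Trap1 (0.973), which encodes a mitochondrial chaperone. Its r was 0.873 with Scn1a, 0.590 with Scn8a and -0.03 with Scn3b. Scn3b was most like Hapln1 (0.868), Ptrh2 (0.863) and Edil3 (0.855), of which Hapln1 encodes a link protein of the extracellular matrix. The groups shared depth, experiment and the difference between inputs and pulldowns, and the values are given as a description.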

How the data were processed

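Ribosome profiling libraries of 38 samples in 14 groups were analysed from the deposited counts. According to the methods and the file headers, the authors trimmed and demultiplexed reads, removed rRNA reads and duplicates by molecular identifier, aligned reads of more than 20 nt with Rsubread to mm10, and counted the 5′ end of each read of at least 25 nt with plastid, with an offset of 0, on CDS and UTR segments of the UCSC annotation. Because the 5′ end was counted, footprints of ribosomes at a start codon fall into the 5′ UTR or an upstream exon. The version of plastid and the treatment of reads that match several places are not given in the sources used here.

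Segment counts were summed per transcript, and 66664 of 67238 coding transcripts (99.1%) were matched by Ensembl identifier to GENCODE M21, giving 22401 genes. The transcript of greatest length was used for each gene. Tests of genes used edgeR 4.0.16 in R 4.3.3 (quasi-likelihood, TMM, filterByExpr, Benjamini-Hochberg FDR of 0.05 over all genes tested), without a replicate block in the main fit. The KCl experiment (24 libraries), the DHPG experiment and the knockdown experiment were fitted separately, and with the resting or untreated PSD95-TurboID libraries where treatments were compared. Ratios of library pairs used a pseudocount of 0.5 reads. Depth was 2048604 to 14646402 CDS counts per library (median 5014812). The fitting script was tested on simulated data.

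Deviations from group means of input and pulldown libraries of the same number correlated at 0.35 to 0.711 in the KCl experiment (12 pairs), so that the numbers pair them there. The correlation was -0.229 to 0.0656 for DHPG libraries and 0.0063 to 0.0273 for knockdown libraries, which were not taken as paired. Resting and depolarized libraries of the same number gave -0.181 to 0.423. The methods state that these were handled at the same time within a replicate, so a fit with the number as a block across conditions is given where it changed a call. Both ligases' libraries share the 3 replicate numbers and were treated as separate samples in the main edgeR fit and in the permutation tests. Where the libraries of both ligases were pooled or averaged, p-values and FDR values may therefore be too small. Replicate libraries differed by more than sampling noise in all groups (chi-square per degree of freedom of 1.48 to 47.5). The subunits, the 2 gene lists and the tests were chosen with earlier results of these data known. The subunits are all named. From each list at most the 2 genes of smallest p in each direction were named per comparison, some genes of the lists are not reported here by name, and likeness used genes with a mean log2 CPM of at least 4. Alternatives were RLE size factors, a likelihood ratio test, DESeq2 1.42.0, no filter, the transcript with the highest count, removal of the trend on CDS length, the mean of both ligases' inputs, replicate blocks and each replicate left out.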

Additional observations from a re-analysis of the deposited data

Results flagged for a closer look

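Scn3b was the 1 subunit whose ratio of pulldown to input had opposite signs in different groups with every pair of a group on the same side of 0. The mean log2 ratio over pairs was 0.2483 with Pan-TurboID in resting neurons (3 of 3 pairs above 0) and 0.5847 with PSD95-TurboID in resting knockdown neurons (2 of 2 above 0). It was -0.3985 with PSD95-TurboID after DHPG (3 of 3 below 0) and -0.402 with PSD95-TurboID in depolarized knockdown neurons (2 of 2 below 0). These ratios are of CPM, and in the edgeR fit the fall of Scn3b with DHPG was smaller. With the trend on CDS length removed, Scn3b was above 0 both with DHPG and in depolarized knockdown neurons. The difference between these groups was not tested.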

How the results depend on the processing

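Of the 46 calls made on subunits, all kept their direction and their call with RLE size factors, with a likelihood ratio test, with DESeq2, without the filter on low counts and with the transcript of the highest count, and the 8 calls that could be made against the mean of both ligases' inputs also did. With the trend on CDS length removed, 44 kept their direction and 33 their call. The number of subunits called then became 1 in depolarized PSD95-TurboID and 0 in depolarized Pan-TurboID pulldowns over inputs, 4 in the KCl response of inputs, 2 in that of PSD95-TurboID and 1 in that of Pan-TurboID pulldowns, 2 in resting knockdown pulldowns over inputs and 3 in depolarized knockdown over untreated pulldowns. It went from 5 to 6 in DHPG pulldowns over inputs, from 4 to 5 in DHPG over resting pulldowns and from 2 to 3 in resting knockdown over untreated pulldowns, 2 of them lower. Counts over all genes with the trend removed are not reported here for the KCl responses of pulldowns, for DHPG over resting pulldowns and for knockdown over untreated pulldowns. The subunit counts of these comparisons therefore have no background beside them. The likelihood ratio test and DESeq2 each called 1 subunit in the KCl response of PSD95-TurboID pulldowns and in knockdown over untreated inputs at rest and after KCl, where the quasi-likelihood test called none. With the replicate block within condition, 27 of 28 calls were kept, and over all genes the calls in pulldowns over inputs went from 3259 to 4999 and from 1640 to 3939 (PSD95-TurboID, resting and depolarized) and from 1250 to 3634 and from 1150 to 3617 (Pan-TurboID). The block across conditions called 1 subunit in the KCl response of each pulldown. Over all genes, the length trend gave 1844, 685, 395 and 344 calls in those 4 comparisons, DESeq2 gave 2636, 2137 and 2252 in the last 3 and likelihood ratio tests gave 1908 and 1827 in the Pan-TurboID ones. In the KCl response of PSD95-TurboID pulldowns DESeq2 gave 1377 against 859, and in that of Pan-TurboID pulldowns 1049 and the block 984 against 655. In knockdown over untreated inputs DESeq2 gave 908 against 515 at rest and 1201 against 702 after KCl, and the likelihood ratio test 783 and 1176. The cause of these changes was not tested.

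Leaving out 1 replicate number gave 0 to 4 subunits called in each of the 4 comparisons of pulldowns with inputs in the KCl experiment, 0 to 1 in the KCl response of inputs and of PSD95-TurboID pulldowns, 0 in both comparisons of knockdown pulldowns with inputs and in both KCl responses of knockdown neurons, 0 to 2 in knockdown over untreated resting pulldowns and 0 to 1 in depolarized ones. Over all 46 calls, 28 were kept without replicate 1, 15 without replicate 2 and, of the 32 with such a replicate, 15 without replicate 3. Calls over all genes fell as well, to 0, 3, 0 and 0 without replicate 3 in the comparisons of pulldowns with inputs in the KCl experiment and to between 7 and 66 in the knockdown experiment, so that a count of 0 subunits there says nothing particular about them. In the knockdown experiment a lone sample was assumed to vary like the other groups.

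Signs that turned belonged to log2 fold changes that were not called, with the exception of Scn2a in resting knockdown pulldowns and Scn3b in DHPG pulldowns over inputs. Against the mean of both ligases' inputs, Scn2b was at -0.10 and Scn3b at 0.031 in resting PSD95-TurboID pulldowns. With the length trend removed, Scn3b was at 0.50 in resting and at 0.26 in depolarized PSD95-TurboID pulldowns over inputs, and Scn2b at 0.30 in the latter and at 0.17 in both Pan-TurboID ones. DHPG pulldowns gave 0.84 for Scn2b and 0.66 for Scn3b, resting knockdown pulldowns -0.11 for Scn2a and 0.27 for Scn2b, and depolarized knockdown pulldowns 0.44 for Scn3b. In KCl responses Scn2b was at -0.19 (PSD95-TurboID) and -0.062 (Pan-TurboID) in pulldowns and Scn3b at -0.16 in knockdown inputs. In knockdown over untreated libraries Scn2a was at -0.028 in depolarized inputs and at -0.35 in resting pulldowns, and Scn2a, Scn3a and Scn8a at -0.25, -0.046 and -0.097 in depolarized pulldowns. For the KCl change of the PSD95-TurboID enrichment, Scn2a was at -0.019 with the length trend removed and at -0.030 with the transcript of the highest count, and Scn8a at -0.084 and -0.052 in these fits, -0.022 with RLE size factors, -0.021 with DESeq2 and -0.085 with the replicate block within condition. Without the filter, Scn3b was at -0.0042 in the KCl response of knockdown inputs. Over the first 25% of the CDS instead of the first 50%, the Scn8a share differed by -3.38 points between pulldowns and inputs.

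With a replicate left out, Scn2b ranged from -0.027 to 0.14 and Scn3b from -0.15 to 0.025 in resting PSD95-TurboID pulldowns, Scn1a from -0.21 to 0.083 in PSD95-TurboID beyond Pan-TurboID, and Scn2b from -0.067 to 0.047 with DHPG. In KCl responses Scn2b ranged from -0.21 to 0.33 and Scn3b from -0.35 to 0.17 (PSD95-TurboID pulldowns), Scn1a from -0.060 to 0.56 and Scn2b from -0.18 to 0.32 (Pan-TurboID pulldowns) and Scn3b from -0.12 to 0.084 (knockdown inputs). For the change of enrichment the ranges were -0.080 to 0.054 (Scn2a), -0.32 to 0.089 (Scn8a) and -0.49 to 0.091 (Scn3b). In knockdown over untreated libraries they were -0.95 to 0.18 (Scn1a) and -0.017 to 0.38 (Scn2a) in depolarized inputs, and -0.23 to 0.20 (Scn2a) and -0.20 to 0.045 (Scn3a) in resting pulldowns. No paired analysis was possible because the replicate numbers mark different experiments for DHPG against resting and for knockdown against untreated libraries. Scn4b rested on 46 counts in all, and Scn2b on as few as 11 in a knockdown library.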
